A study of Mus musculus with 6 samples.

Results

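A set of 10 genes of the Notch pathway was followed in RNA-seq libraries of Sertoli cells, the somatic cells of the seminiferous tubule that surround and feed the germ cells. The genes were taken by name, as members of the pathway, with earlier results of these data known, and comprised the 4 receptors *Notch1*, *Notch2*, *Notch3* and *Notch4*, the ligand genes *Jag1*, *Jag2* and *Dll4*, and the target genes *Hes1*, *Hey1* and *Heyl*. All 10 were among the 28262 genes of the table, and 8 were among the 14919 genes with enough reads to be tested, *Dll4* and *Hey1* being too low. The cells came from the testes of C57BL/6 mice aged 20 days and were untreated. The control group was Pa1F/F, in which *Pa1* is flanked by loxP sites, with 3 replicates. The knockout group was Amh-pa1-/-, also with 3 replicates, in which a Cre recombinase under the *Amh* promoter deletes the floxed *Pa1* in Sertoli cells and leaves it in the other cells of the testis. PA1 is a subunit of the MLL3 and MLL4 histone methyltransferase complexes, and the question was which transcripts depend on it in these cells. *Pa1* itself was not analysed here, so the deletion was not checked in the reads. The study's methods call the replicates biological, and the sources used here do not say whether each was a single animal or a pool, so p-values measure the spread between these samples.

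Notch receptors are transmembrane proteins that are activated by a ligand of the Jagged or Delta-like family on a neighbouring cell. Ligand binding exposes the receptor to ADAM10, and then to the γ-secretase complex, which frees the intracellular domain. That domain joins RBPJ and a Mastermind-like coactivator on DNA and switches on genes of the HES and HEY families, which are transcriptional repressors. In the testis, Notch activity of Sertoli cells is known to restrain *Gdnf*, the growth factor of spermatogonial stem cells, and *Cyp26b1*, which degrades retinoic acid. NOTCH4 and DLL4 are best known from blood vessel endothelium, and NOTCH3 and HEYL from the mural cells that wrap vessels.

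Total counts per library ranged from 13203757 to 16231443, and counts of 3 or fewer were treated as not detected. The Sertoli cell label was checked on 20 markers, of which 19 were in the table and 18 were tested. Among these 7 were lower and 3 higher in knockout cells, where 17.1% of all tested genes were lower and 18.2% higher. The summed level of the markers was 17621 to 17980 CPM (counts scaled to a common depth) in control and 10894 to 13821 CPM in knockout libraries. *Clu*, which encodes the secreted protein clusterin, made up 74.1% of this sum in control and 68.4% in knockout libraries, and without it the sum was 4506 to 4776 and 3706 to 3873 CPM. *Sox9* (3166 to 5499 counts) and *Wt1* (4484 to 6233 counts) were detected in every library. Control replicates 1 and 3 differed at least 2-fold in 1.72% of tested genes, and control replicate 2 from them in 4.40% and 4.57% (on normalized counts with 1 added). Knockout replicates 1 and 2 differed in 2.51% of tested genes, and knockout replicate 3 from them in 9.06% and 9.32%, so results are given below also without a library that moves them.

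The levels of the 10 genes spanned a wide range when counts were scaled to transcript length and library depth (RPKM). In control cells *Jag1* was the highest at 39.8 ± 3.86 RPKM (SD, n = 3), followed by *Notch2* at 31.7 ± 2.04, *Heyl* at 16.1 ± 1.45, *Hes1* at 8.49 ± 0.719 and *Notch1* at 4.93 ± 1.40 RPKM. *Notch4* at 1.65 ± 0.299 and *Notch3* at 0.464 ± 0.0431 RPKM came next, and *Dll4* at 0.144 ± 0.0724, *Hey1* at 0.117 ± 0.0426 and *Jag2* at 0.115 ± 0.0160 RPKM were the lowest and overlapped one another. In knockout cells the order of the leading pair was kept, with *Jag1* at 33.3 ± 5.96 and *Notch2* at 27.7 ± 1.69 RPKM, while *Hes1* at 21.3 ± 12.2 RPKM stood before *Heyl* at 7.21 ± 4.49 and *Notch1* at 6.51 ± 0.364 RPKM. *Notch4* was at 0.807 ± 0.108 RPKM there, and the remaining 4 genes lay between 0.130 ± 0.0561 for *Dll4* and 0.233 ± 0.0451 for *Jag2*. Thus the Sertoli cell preparations held mostly *Jag1*, *Notch2* and *Heyl* or *Hes1* transcripts, and little of *Jag2*, *Dll4* and *Hey1*.

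**Figure D1:**
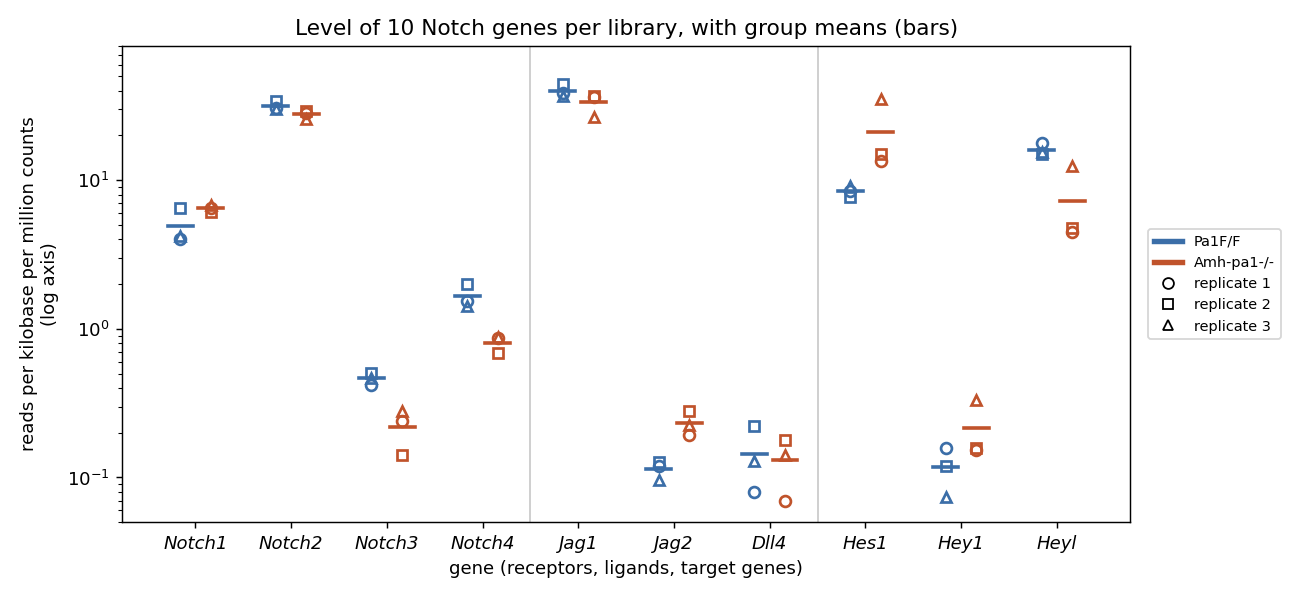
Length-scaled level of each of the 10 genes (RPKM, log axis) in the 3 Pa1F/F (blue) and 3 Amh-pa1-/- (orange) libraries, with a symbol per replicate and a bar at the group mean. *Hes1* lay above its control values in all 3 knockout libraries, *Heyl*, *Notch3* and *Notch4* lay below theirs, and knockout replicate 3 (triangle) was the highest knockout library for *Hes1*, *Hey1* and *Heyl*.

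Of the 8 tested genes, 4 changed at an adjusted p under 0.05 in the quasi-likelihood test of edgeR, with p-values adjusted by the Benjamini-Hochberg procedure over all tested genes, beside 35.3% of all tested genes. *Notch3* and *Notch4* were lower in knockout cells, where the share of all tested genes was 17.1%, and *Hes1* and *Jag2* were higher, where it was 18.2%. These 4 genes also differed by 1 or more on the log2 scale, the second threshold of the study, as did 12.0% of all tested genes (6.56% lower and 5.44% higher). The median log2 fold change of the 8 tested genes was −0.22, and that of all tested genes was 0.00. Values of the knockout and control libraries did not overlap for 6 of the 8 tested genes (*Notch2*, *Notch3*, *Notch4*, *Jag2*, *Hes1* and *Heyl*), beside 52.4% of all tested genes. *Jag2* passed the filter on low counts through the knockout libraries alone, so with its low control level it could be tested only because its knockout level was higher. The count of changed genes was 4 of 9 tested without knockout replicate 3, 2 of 8 tested without control replicate 2, and 1 to 3 without each of the others.

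**Figure D2:**
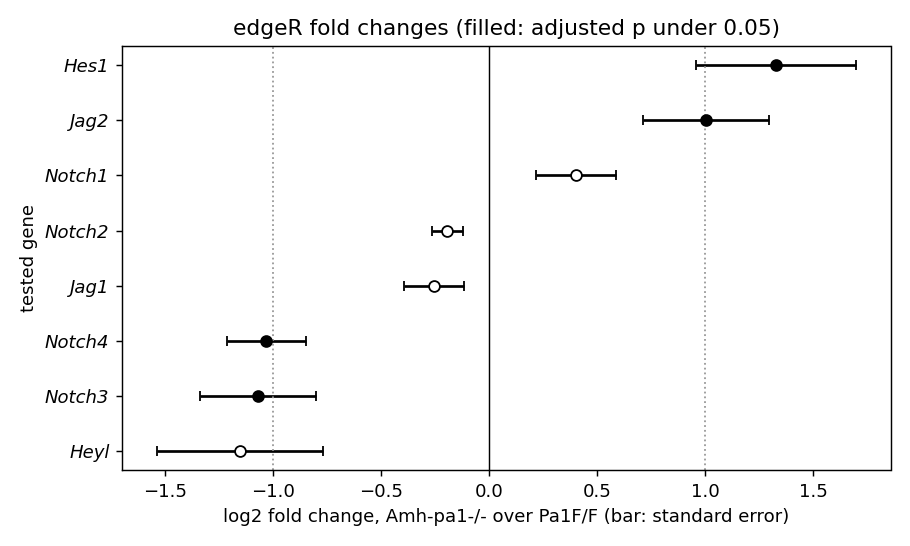
Log2 fold change of the 8 tested genes, knockout over control, from edgeR with standard errors as bars; filled points have an adjusted p under 0.05, and dotted lines mark a log2 fold change of 1 in each direction. *Hes1* and *Jag2* lay at or beyond the right line, *Notch3* and *Notch4* beyond the left line, and the open point of *Heyl* lay lowest, with an adjusted p of 0.0556.

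Of the receptors, *Notch4* (ENSMUSG00000015468, chr17:34564268-34588503, plus strand, GRCm38) had the smallest p of the 8 tested genes. Its normalized counts, which are counts scaled to the mean effective library size, were 150.5, 194 and 138 in control and 83.9, 66.4 and 85.1 in knockout libraries. Each knockout library lay below each control library. The mean was 161 ± 29.1 (SD, n = 3) in control and 78.5 ± 10.5 in knockout cells, a 2.05-fold fall with a log2 fold change of −1.03 (SE 0.18, adjusted p = 0.00585). The fall passed an adjusted p under 0.05 whichever library was left out, with log2 fold changes from −1.13 to −0.88 and adjusted p from 0.00462 to 0.0232, although it was smaller than 1 on the log2 scale without control replicate 2 (−0.88) or knockout replicate 2 (−0.91).

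*Notch3* (ENSMUSG00000038146, chr17:32120820-32166880, minus strand) was at a lower level than *Notch4*. Its normalized counts were 49.8, 60.1 and 55.6 in control and 28.3, 16.9 and 33.1 in knockout libraries, and the groups did not overlap. The means were 55.2 ± 5.12 and 26.1 ± 8.31 (n = 3 each), 2.12-fold apart, with a log2 fold change of −1.07 (SE 0.27, adjusted p = 0.0217). Knockout replicate 2 was the lowest library. Without knockout replicate 3 the log2 fold change was −1.27 (adjusted p = 0.0096), and without knockout replicate 2 it was −0.83 (adjusted p = 0.0485), smaller than 1 in size. Without knockout replicate 1 the adjusted p was 0.0592, and without control replicates 1, 2 or 3 it was 0.0558, 0.0621 and 0.0689, each time with a lower level in knockout cells.

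Markers of the vascular cells in which these receptors are best known were measured in the same libraries. Of 14 endothelial markers, 13 were in the table and 4 were tested, and 3 of them fell, beside 17.1% of all tested genes. These were *Cdh5*, a junction cadherin (log2 fold change −0.87, adjusted p = 0.000536), *Pecam1*, an adhesion molecule (−1.73, adjusted p = 0.00918), and *Robo4*, a guidance receptor (−1.10, adjusted p = 0.0124). The fourth, the growth factor receptor gene *Kdr*, did not pass the test (1.47, adjusted p = 0.172), with 66 to 103 counts in control and 82, 66 and 484 counts in knockout libraries. The summed level of the list was 137 to 142 CPM in control and 69.8 to 115 CPM in knockout libraries, and *Cdh5* made up 77.4% and 69.0% of it. Without *Cdh5* the sum was 30.5 to 33.5 CPM in control libraries and 14.6, 15.8 and 49.1 CPM in knockout replicates 1, 2 and 3, so the third lay above every control library. Without *Cdh5* and *Robo4* the sum was 9.49 to 14.4 CPM in control libraries and 8.10, 7.81 and 36.4 CPM in knockout replicates 1, 2 and 3. The list members *Emcn*, *Cldn5*, *Sox17* and *Erg* were at 3 counts or fewer in every library. Of 11 markers of mural and peritubular myoid cells, 10 were in the table and 8 were tested. Of these 1 was lower (*Cspg4*) and 2 were higher (*Acta2* and *Mcam*), beside 17.1% and 18.2% of all tested genes. The summed level of the list was 653 to 676 CPM in control and 1101 to 1718 CPM in knockout libraries. Without *Acta2*, the smooth muscle actin gene, the sum was 433 to 481 CPM in control libraries and 311, 293 and 672 CPM in knockout replicates 1, 2 and 3. Without *Acta2* and *Cspg4* it was 136 to 151 CPM in control libraries and 124, 114 and 478 CPM in knockout replicates 1, 2 and 3. The part of other cell types in the *Notch3* and *Notch4* values was not tested. In bulk libraries, fewer cells of a type and less RNA per cell cannot be told apart.

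*Notch4* and *Notch3* both had a promoter entry in RefSeq, and their sequences are shown because these were the receptors that fell and because their windows held different motifs. RefSeq windows (GRCm38.p6, reaching 250 bases before the RefSeq start) were found for 7 of the 10 genes, and *Hes1*, *Hey1* and *Heyl* had no match. Both strands were searched for TGANTCA, bound by AP-1, the JUN and FOS dimer that the study examined together with PA1. The N-box CACNAG, bound by HES repressors, was also searched, as were TGGGAA, the core bound by RBPJ, and the E-box CACGTG. The sequences below are chr17:34564045-34564297 (plus strand) for *Notch4* and chr17:32166891-32167140 (minus strand) for *Notch3*, written 5′ to 3′, with the AP-1 match in capitals for *Notch4* and the N-box matches in capitals for *Notch3*.
Notch4: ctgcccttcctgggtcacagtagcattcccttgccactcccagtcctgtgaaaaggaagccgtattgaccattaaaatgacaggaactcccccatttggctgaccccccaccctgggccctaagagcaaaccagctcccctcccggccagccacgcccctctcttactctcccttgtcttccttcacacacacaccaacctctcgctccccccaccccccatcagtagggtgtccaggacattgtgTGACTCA
Notch3: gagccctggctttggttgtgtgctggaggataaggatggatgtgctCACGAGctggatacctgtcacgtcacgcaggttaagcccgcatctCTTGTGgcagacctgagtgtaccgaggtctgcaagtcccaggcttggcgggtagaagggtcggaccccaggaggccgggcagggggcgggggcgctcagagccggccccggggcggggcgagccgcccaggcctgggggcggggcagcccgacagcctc
The AP-1 match of *Notch4* ran from base −4 to base 3 around the RefSeq start, which lies 27 bases inside the gene as the deposited table places it, and was the only AP-1 match among the 7 windows, while 7.81% of all 32851 RefSeq windows of 300 bases held one. The N-box was found in 4 of 7 windows (*Notch1*, *Notch2*, *Notch3* and *Dll4*), beside 42.5% of all windows, with the *Notch3* matches at −204 and −159 and with a pair of matches in *Notch1* that overlap each other. No window of the 7 held TGGGAA or CACGTG, which stood in 25.6% and 7.15% of all windows. These are matches of letters only, and binding was not measured here.

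*Notch2* and *Notch1* were the receptors at the highest levels. *Notch2* (ENSMUSG00000027878, chr3:98013527-98150361, plus strand) had normalized counts of 4780.1, 5286 and 4704 in control and 4399, 4500.0 and 4004 in knockout libraries. All 3 knockout values were below the control values, yet the difference was small, with means of 4923 ± 316 and 4301 ± 262 (n = 3 each) and a log2 fold change of −0.19 (SE 0.07, adjusted p = 0.0799). *Notch1* (ENSMUSG00000026923, chr2:26457903-26516663, minus strand) had 565, 912.5 and 584 normalized counts in control and 913, 855 and 956 in knockout libraries. Control replicate 2 reached the knockout level, so the groups overlapped. The means were 687 ± 195 and 908 ± 50.7 (n = 3 each), with a log2 fold change of 0.40 (SE 0.19, adjusted p = 0.137), and without control replicate 2 the log2 fold change was 0.66 with an adjusted p of 0.00329.

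The share of each receptor in the summed receptor level was also computed, a comparison that was chosen after the values were seen and that was given no test. *Notch2* made up 82.0 ± 2.58% of the summed receptor RPKM in control and 78.6 ± 2.18% in knockout cells (n = 3 each), and *Notch1* made up 12.6 ± 2.28% and 18.5 ± 1.64%. *Notch4* made up 4.25 ± 0.357% and 2.30 ± 0.356%, and *Notch3* 1.20 ± 0.0767% and 0.627 ± 0.216%. The summed level itself was 38.8 ± 3.76 RPKM in control and 35.2 ± 1.25 RPKM in knockout cells. The ratio of *Notch1* to *Notch2* counts, also chosen after the values were seen and in which the depth of the library cancels, was 0.118, 0.173 and 0.124 in control and 0.207, 0.190 and 0.239 in knockout libraries. Each knockout ratio was above each control ratio. The ratio of *Jag1* to *Notch2* counts was 0.683, 0.705 and 0.658 in control and 0.700, 0.696 and 0.558 in knockout libraries, and the groups overlapped.

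**Figure D3:**
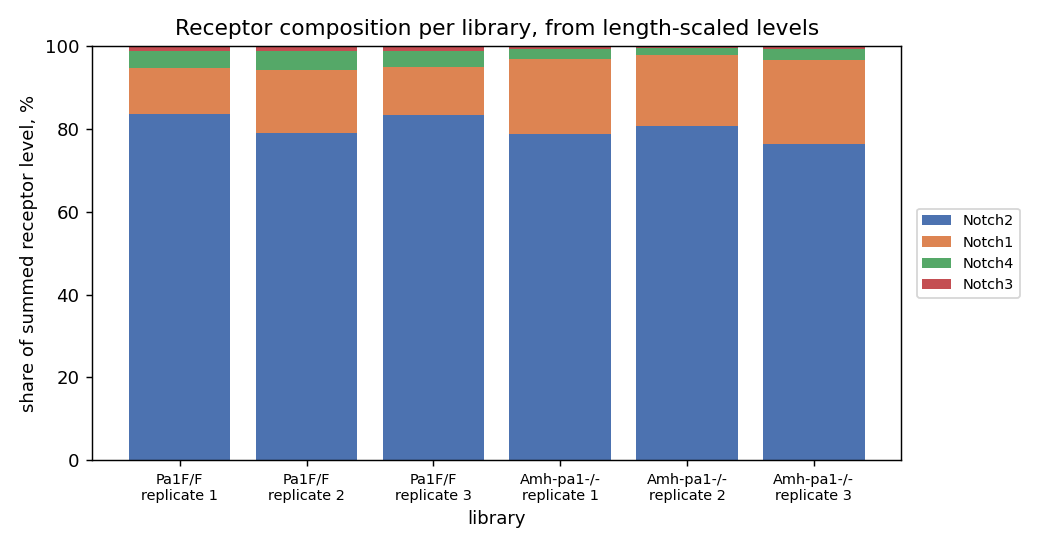
Share of each receptor in the summed length-scaled receptor level (%, stacked to 100) in each of the 6 libraries. *Notch2* filled most of every bar, *Notch1* took 10.99 to 15.2% in control and 17.0 to 20.3% in knockout libraries, and the *Notch3* and *Notch4* segments were thinner in knockout libraries.

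*Jag1*, the ligand at the highest level, did not pass the test. *Jag1* (ENSMUSG00000027276, chr2:137081456-137116644, minus strand) had normalized counts of 3267, 3727 and 3096 in control and 3081, 3131 and 2236 in knockout libraries. Knockout replicate 3 was low while the other 2 knockout libraries lay within or just under the control range. The means were 3363 ± 326 and 2816 ± 503 (n = 3 each), with a log2 fold change of −0.26 (SE 0.14, adjusted p = 0.200). Leaving out knockout replicate 3 gave −0.11 (adjusted p = 0.286). Neither *Jag1* nor *Notch2* passed under any of the 14 alternatives.

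*Jag2* (ENSMUSG00000002799, chr12:112907819-112929776, minus strand) is a second Jagged ligand and was counted at few reads. The counts were 10, 10 and 7 in control and 15, 19 and 17 in knockout libraries, or 9.06, 9.69 and 7.34 against 14.6, 21.4 and 17.0 normalized counts. The groups did not overlap. The means were 8.70 ± 1.21 and 17.7 ± 3.42 (n = 3 each), 2.03-fold apart, with a log2 fold change of 1.004 (SE 0.29, adjusted p = 0.0355). A higher knockout level was a condition of being tested here, since no control library reached the filter on low counts, and with DESeq2 size factors the log2 fold change was 0.9995. The call was lost whichever of the 6 libraries was left out, with an adjusted p between 0.054 and 0.12 and a log2 fold change between 0.87 and 1.13.

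*Dll4* (ENSMUSG00000027314, chr2:119325784-119335962, plus strand), the Delta-like ligand of sprouting vessels, had 5, 13 and 7 counts in control and 4, 9 and 8 counts in knockout libraries. The groups overlapped. Summed over libraries there were 25 and 21 counts, a depth-scaled ratio of 0.891 of knockout over control with an exact 95% interval of 0.474 to 1.66, so a change of this ligand within that interval was not detectable at this depth. Such intervals cover counting error only and leave out the spread between replicates, since the counts were summed over the libraries of each group. Reads without molecular identifiers are not independent molecules, so the counting error itself can be larger than given.

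Among the target genes, *Hes1* (ENSMUSG00000022528, chr16:30064384-30067796, plus strand) was higher in knockout cells. Its normalized counts were 191, 174 and 207 in control and 305, 336 and 792 in knockout libraries. All knockout libraries lay above all control libraries, and knockout replicate 3 lay far above the other 2. The means were 191 ± 16.2 and 477 ± 273 (n = 3 each), a 2.50-fold rise with a log2 fold change of 1.33 (SE 0.37, adjusted p = 0.0312). Without knockout replicate 3 the rise was smaller, with a log2 fold change of 0.75 and an adjusted p of 0.00165. Without control replicates 1, 2 or 3 the adjusted p was 0.0935, 0.0873 and 0.0823, with log2 fold changes from 1.26 to 1.39.

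*Heyl* (ENSMUSG00000032744, chr4:123233556-123249875, plus strand) had the opposite sign. Its normalized counts were 1185, 1002 and 1039 in control and 300, 319 and 829 in knockout libraries. The groups did not overlap, and knockout replicate 3 again lay far above the other 2 and nearest to the control libraries. The means were 1075 ± 96.8 and 482.5 ± 300.5 (n = 3 each), with a log2 fold change of −1.15 (SE 0.38, adjusted p = 0.0556), which missed the threshold. Without knockout replicate 3 the log2 fold change was −1.80 with an adjusted p of 2.92e-05. Leaving out any of the other 5 libraries gave −0.90 to −1.20 with adjusted p from 0.094 to 0.149. DESeq2's Wald test on all 6 libraries gave −1.16 with an adjusted p of 0.00383.

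*Hey1* (ENSMUSG00000040289, chr3:8663359-8667256, minus strand), the remaining HEY target, had 10, 7 and 4 counts in control and 9, 8 and 19 counts in knockout libraries. The groups overlapped, and knockout replicate 3 held more counts than any other library. Summed counts were 21 and 36, a depth-scaled ratio of 1.82 of knockout over control with an exact 95% interval of 1.03 to 3.28 that covers counting error only. In a test without the filter on low counts the log2 fold change was 0.88 and the adjusted p was 0.303.

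Knockout replicate 3 was the highest knockout library for all 3 target genes. Knockout replicate 3 over the mean of knockout replicates 1 and 2 was 2.48 for *Hes1*, 2.68 for *Heyl* and 2.14 for *Hey1*, whereas it lay between 0.720 for *Jag1* and 1.46 for *Notch3* among the receptors and ligands. The same library also stood apart for some markers of several cell types. It held 364 counts of the Sertoli marker *Amh* against 45 and 43 in knockout replicates 1 and 2, and 484 counts of the endothelial marker *Kdr* against 82 and 66. For some other markers of these lists it held fewer, with 3166 counts of *Sox9* against 5024 and 4248. It held 4484 counts of *Wt1* against 6233 and 5382, and 13 counts of *Pecam1* against 18 and 18. It also held more counts of contractile markers of mural and peritubular myoid cells, with 420 counts of *Cnn1* against 35 and 22, 484 of *Des* against 45 and 41, 729 of *Actg2* against 68 and 46, and 1602 of *Myh11* against 221 and 146. Control libraries held 171 to 262 counts of *Amh*, 28 to 62 counts of *Cnn1* and 497 to 716 counts of *Myh11*. The part of these cell types in the *Hes1*, *Hey1* and *Heyl* values was not tested.

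*Heyl* was next set against *Hes1* within each library, a comparison that was chosen after the values were seen. The ratio of *Heyl* counts to *Hes1* counts was 6.19, 5.74 and 5.03 in control and 0.984, 0.950 and 1.05 in knockout libraries. The control ratios were all above the knockout ratios, and knockout replicate 3 did not stand apart. The mean ratio was 5.65 ± 0.590 in control and 0.993 ± 0.0492 in knockout cells, 5.69-fold apart (n = 3 each). The separation of the groups follows from the choice of a gene that was higher and a gene that was lower in every knockout library, so it is a description and was given no test. The coefficient of variation within the knockout group was 57.2% for *Hes1* and 62.3% for *Heyl*, and 8.47% and 9.002% in the control group.

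**Figure D4:**
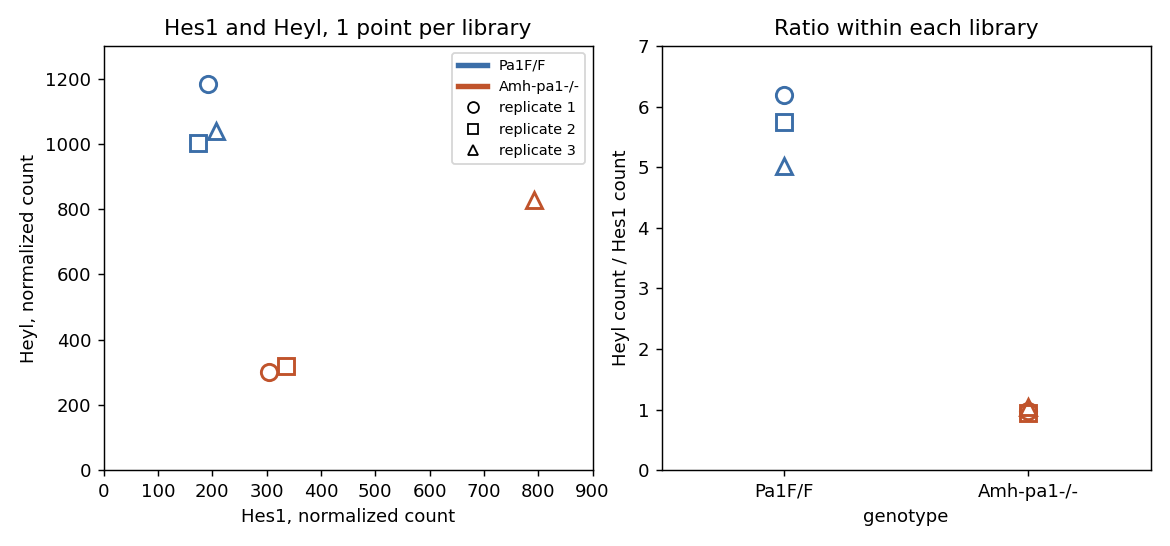
Left, normalized counts of *Heyl* against *Hes1*, with 1 point per library; right, the ratio of *Heyl* to *Hes1* counts in each library, by genotype. Control libraries lay between 5.03 and 6.19 and knockout libraries between 0.950 and 1.05, with knockout replicate 3 apart on the left and beside the others on the right.

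The genes with the profile most like that of *Hes1*, which had the largest absolute log2 fold change of the 8 tested genes with all 6 libraries in edgeR's test, were searched among all 14919 tested genes by the Euclidean distance of mean-centred log2 CPM over the 6 libraries. They were *Fgfr3*, a fibroblast growth factor receptor, at a distance of 0.328, *Adamts1*, a secreted protease, at 0.339, and *Kif5c*, a kinesin motor, at 0.389. *Adamts1* had 966, 901 and 984 normalized counts in control and 1910, 1840 and 3754 in knockout libraries, with knockout replicate 3 the highest, as for *Hes1*. Since the match was made on these values, the likeness is a description. *Heyl* had the larger absolute value without knockout replicate 3 (−1.80 against 0.75), and in limma-voom (−1.31 against 1.19).

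The other genes of the pathway were taken from fixed lists of 65 genes, of which 64 were in the table and 55 were tested. Of these 28 changed at an adjusted p under 0.05, beside 35.3% of all tested genes, with 15 that fell (17.1% of all tested genes) and 13 that rose (18.2%). Past both thresholds, 4 fell (6.56% of all tested genes) and 3 rose (5.44%), and the 7 together stand beside 12.0% of all tested genes. Of the 3 that rose, *Dlk1* passed the filter on low counts through the knockout libraries alone, so it could be tested only because its knockout level was higher. The median log2 fold change of the 55 tested pathway genes was −0.13. The counts of the single lists that follow are to be read against the same shares, 17.1% lower and 18.2% higher.

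Genes that cut and modify the receptors came first. Of 10 cleavage genes, 5 rose. *Adam10*, the protease of the ligand-induced cut, had 5178, 4821 and 5621 normalized counts in control and 14826, 14318 and 9476 in knockout libraries, a log2 fold change of 1.31 (SE 0.17, adjusted p = 0.00208), with knockout replicate 3 the lowest of the knockout libraries. The γ-secretase genes *Psen2* (0.81, adjusted p = 0.0105), *Ncstn* (0.46, adjusted p = 0.00594), *Aph1b* (0.44) and *Aph1a* (0.27) rose. Of 4 tested glycosylation genes, 2 rose, *Lfng* and *Rfng*, the Fringe enzymes that extend sugars on the receptors. *Lfng* went from 1229 ± 151 to 1963 ± 135 normalized counts (n = 3 each), a log2 fold change of 0.68 (SE 0.10, adjusted p = 0.00309).

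In the nuclear complex, 3 of 7 genes fell and none of the 7 rose at an adjusted p under 0.05 in edgeR. *Maml2*, a Mastermind-like coactivator, had a log2 fold change of −0.96 (SE 0.18, adjusted p = 0.00673), and the acetyltransferase genes *Ep300* and *Crebbp* had −0.31 and −0.27. *Rbpj*, the DNA-binding partner of the receptor domain, was at 1505 to 1591 normalized counts in control and 1445 to 1489 in knockout libraries, and did not pass the test (−0.07, adjusted p = 0.279). Of 12 corepressor genes, 3 fell and 3 rose, each by less than 1 on the log2 scale, with *Hdac1*, a histone deacetylase, having the smallest p (−0.38, SE 0.08, adjusted p = 0.0107).

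Of 16 genes of ligand endocytosis and receptor turnover, 6 fell and 2 rose. *Dtx1*, which encodes a Deltex ubiquitin ligase that binds Notch receptors, had 2684, 2566 and 2700.3 normalized counts in control and 666, 634 and 519.9 in knockout libraries. It was far lower in all 3 knockout libraries, by 4.37-fold, with a log2 fold change of −2.13 (SE 0.10, adjusted p = 6.99e-05). *Dtx4*, of the same family, fell from 1781 ± 212 to 814 ± 70.3 normalized counts (−1.13, SE 0.11, adjusted p = 0.000651). *Neurl1b*, a ubiquitin ligase of Notch ligands, rose from 31.3 ± 22.4 to 131 ± 39.7 normalized counts (2.06, SE 0.47, adjusted p = 0.0158). Without control replicate 1 or 3 the adjusted p of *Neurl1b* was 0.0579 and 0.0553.

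Of 5 other ligand genes 3 were tested, and 1 fell and 1 rose. *Dlk2*, a non-canonical ligand, had 175, 98.8 and 191 normalized counts in control and 33.2, 24.8 and 18.0 in knockout libraries, a log2 fold change of −2.60 (SE 0.33, adjusted p = 0.00183). Its relative *Dlk1* went from 5.50 ± 0.288 to 30.0 ± 8.80 normalized counts (2.43, SE 0.33, adjusted p = 0.00222), having passed the filter through the knockout libraries alone. *Dner* did not pass the test, and *Dll1* and *Dll3* were too low to be tested. Of 8 other HES, HEY and feedback genes, 7 were in the table and *Hes6* alone was tested (0.26, SE 0.11, adjusted p = 0.108), while *Hes3*, *Hes5*, *Hes7* and *Nrarp* were at 3 counts or fewer in every library.

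The Sertoli cell genes that Notch activity is known to restrain were *Gdnf* and *Cyp26b1*. *Gdnf* fell from 701 ± 42.7 to 280 ± 14.3 normalized counts (n = 3 each), with a log2 fold change of −1.32 (SE 0.08, adjusted p = 0.000159), and all knockout libraries lay below all control libraries. *Cyp26b1* had 46.2, 50.4 and 56.6 normalized counts in control and 20.5, 10.1 and 54.1 in knockout libraries, and did not pass the test (−0.84, adjusted p = 0.253). Knockout replicate 3, which held the most *Hes1*, was at the control level of *Cyp26b1*.

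**Figure D5:**
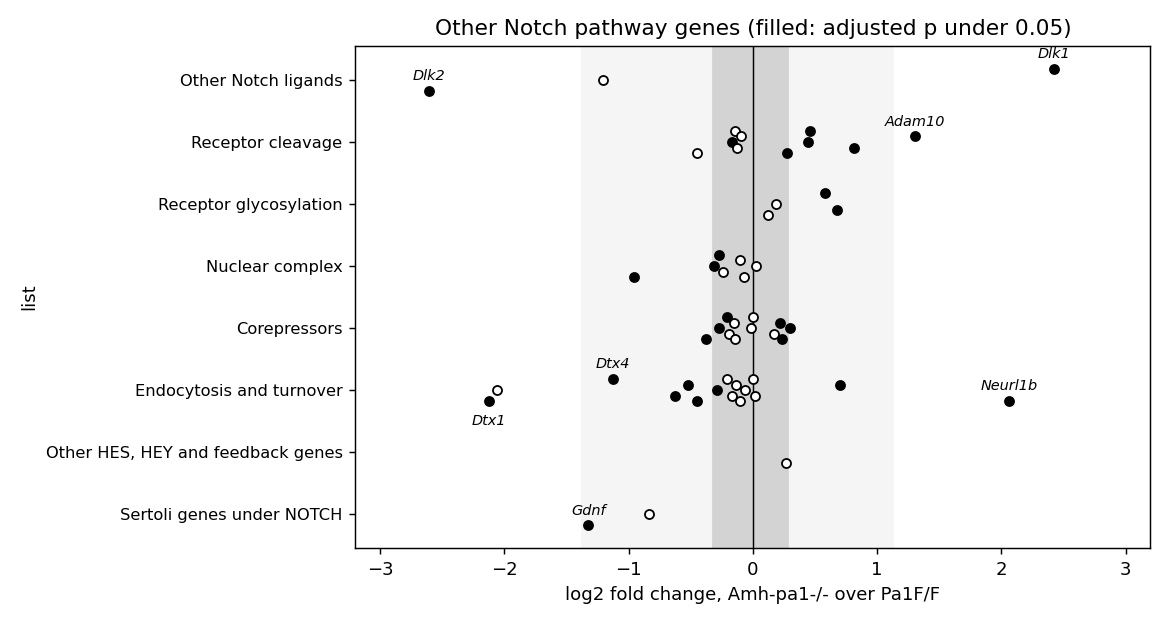
Log2 fold change (knockout over control) of the 55 other tested pathway genes by list, filled where the adjusted p was under 0.05, with names for genes past both thresholds; the shaded bands span the middle 50% and 90% of all tested genes. *Dlk2*, *Dtx1*, *Dtx4* and *Gdnf* lay to the left of −1, and *Dlk1*, *Neurl1b* and *Adam10* to the right of 1.

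Germ cells and interstitial cells, which can carry ligands and receptors into such preparations, were followed by their markers. Of 4 tested Leydig markers 3 fell (*Star*, *Cyp11a1* and *Hsd3b1*), of 9 macrophage markers 7 fell, of 4 spermatogonia markers 2 fell (*Gfra1* and *Kit*), of 3 spermatocyte markers 1 fell (*Ddx4*), and the 1 tested spermatid marker did not pass. Of all tested genes 17.1% fell. Leydig markers summed to 839 to 933 CPM in control and 177 to 333 CPM in knockout libraries, and without *Star*, which led the sum, to 336 to 366 and 39.96 to 77.2 CPM. Without *Star* and *Cyp11a1* it was 46.6 to 55.5 CPM in control libraries and 15.997, 18.3 and 51.6 CPM in knockout replicates 1, 2 and 3, the third at the control level. *Hsd17b3*, the fourth tested Leydig marker, did not pass the test, with 302 to 668 counts in control and 189, 179 and 666 counts in knockout libraries. Macrophage markers summed to 128 to 140 and 76.3 to 94.3 CPM, and without *Mrc1*, which did not pass the test, to 61.3 to 73.4 and 10.9 to 12.9 CPM. Spermatogonia markers summed to 280 to 340 and 175 to 294 CPM, of which *Uchl1* and *Etv5*, which did not pass the test, made up 98.5% and 99.2%, and without them the sums were 3.36 to 5.85 and 1.30 to 2.46 CPM. Spermatocyte markers summed to 4.13 to 5.20 and 3.39 to 7.77 CPM, and spermatid markers, nearly all of it *Spaca1*, to 6.85 to 7.71 and 6.36 to 6.77 CPM. The list members *Cyp17a1* and *Insl3* of Leydig cells, *Zbtb16*, *Stra8*, *Dmrtb1* and *Sohlh1* of spermatogonia, *Spo11* and *Ldhc* of spermatocytes, and *Prm1*, *Tnp2* and *Acrv1* of spermatids were at 3 counts or fewer in every library. The part of these cells in the values of the 10 genes was not tested.

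The strand setting of the counting was not stated, so reads of overlapping genes cannot be told apart. Genes that overlap *Notch1*, *Notch2*, *Notch3* and *Dll4* were counted at 0 to 17 reads per library, and no gene of the table overlapped the other 6.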

How the data were processed

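Total RNA of isolated Sertoli cells was sequenced by the authors on an Illumina HiSeq instrument, 1 library per replicate. Reads were aligned by the authors to GRCm38 with HISAT2 2.1.0 and counted per gene with HTSeq 0.6.0, per the methods and the processing notes, and the raw counts were deposited without normalization. The strand setting of the counting is not given in the sources used here. The deposited table also holds the authors' own comparison (mean signal, fold change and p-values), which was not used. *Pa1* was not analysed here.

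Counts were filtered with edgeR 4.0.16 by group (filterByExpr at a minimum count of 10 and a total of 15). TMM factors were 0.990 to 1.03. The quasi-likelihood F-test was run in R 4.3.3, and p-values were adjusted after Benjamini and Hochberg over 14919 genes. Standard errors are the size of the log2 fold change over the square root of F. The study's methods name DEGseq. Its thresholds (adjusted p under 0.05, log2 change of 1 or more in size) were used. RPKM values rest on the canonical transcript lengths of a later GENCODE release on GRCm39, since no annotation of the build of the counts was used here. Summed low counts were given an exact binomial interval in Python 3.11.15. The steps were tested on simulated data. All columns of counts were used.

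The members and lists were chosen with earlier results of these data known. All 10 genes are named with values. From the pathway lists (other ligands, receptor cleavage, glycosylation, nuclear complex, corepressors, endocytosis and turnover, other HES and HEY genes, Sertoli genes under Notch), every gene past both thresholds is named, or else the gene with the smallest p, as are the 3 genes with the profile nearest to that of the member with the largest absolute log2 fold change. A result of the cleavage list is not reported here. Other genes of these lists and the markers given with values were named after their values were seen. Alternatives were other size factors, library size only, DESeq2 1.42.0, limma-voom (limma 3.58.1), 2 other filters, the replicate number as a block, the sum of close replicate pairs, and leaving out each library.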

Additional observations from a re-analysis of the deposited data

How the results depend on the processing

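Under the 14 alternatives, none of the 111 fits of the 8 tested Notch genes reversed its direction. *Notch4* passed an adjusted p under 0.05 in 13 of 14 alternatives, *Hes1* in 9, *Notch3* in 8, *Heyl* in 5, *Jag2* in 3 of 13, *Notch1* in 1, and *Notch2* and *Jag1* in 0. *Jag2* was not tested where every library needed 10 counts. Leaving out 1 library at a time gave 1 to 4 changed genes of the 8 or 9 tested in place of 4 of 8 (1 to 3 lower and 0 to 1 higher in place of 2 each), and 0 to 3 past both thresholds. Over all tested genes it gave 3450 to 6617 changed genes in place of 5266, and over the other pathway genes 18 to 32 in place of 28. DESeq2's Wald test, limma-voom, no filter and at least 10 counts in every library each gave 1 higher Notch gene, *Hes1* or *Jag2*, in place of 2. Summing the closest replicates (control 1 with 3, knockout 1 with 2), which leaves 2 libraries per genotype, gave 0 changed Notch genes (0 lower, 0 higher, 0 past both thresholds), with 1382 changed and 883 past both thresholds over all genes and 8 changed pathway genes. The cause of the other moves was not tested.

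No pairing of the samples by replicate number was visible, since deviations of same-numbered libraries correlated at 0.11, −0.17 and −0.18. Such a check cannot exclude a pairing. With the replicate number as a block, 3802 genes changed in all, with 3 of the Notch genes (*Hes1*, *Heyl* and *Notch4*, 1 of them higher) and 18 pathway genes. *Heyl* then had a larger absolute log2 fold change than *Hes1* (−1.31 against 1.19). A depth of about 10 counts per library limits *Jag2*, *Dll4* and *Hey1*.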
